A study of Mus musculus with 2 samples.

Results

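The splice junctions of the mouse T cell receptor alpha and delta locus (Tcra/Tcrd) are described here in thymus RNA. They were chosen by position: every row of the deposited junction list that lies on chromosome 14 within the 1850000 bases from position 53000000 on mm9. The window holds 1944 junctions of the 532115 in the list, and 34198 of its 38.9 M junction reads (M stands for 1000000). The RNA came from the thymus of adult C57BL/6J mice, an inbred strain, aged 8 weeks, with littermates of both sexes pooled. There were 2 libraries, labelled biological replicates 1 and 2 but given 1 donor entry, so the spread between them may be technical in part. Both belong to 1 group, so nothing was compared between conditions. The labels describe stranded libraries of rRNA-depleted polyadenylated RNA over 200 nucleotides, read as pairs of 76 bases. Each junction name holds 2 read counts, called R1 and R2, which add up to the total in every row. The list sums to 17.2 M R1 reads and 21.7 M R2 reads, and no label says which library is which entry.

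A T cell receptor alpha chain gene is assembled in a developing thymocyte by cutting the DNA and joining 1 variable (V) segment to 1 joining (J) segment. The RNA then starts at the V leader exon, runs through the joined V and J segments, and is spliced from the end of the J segment to the first exon of the constant gene Trac. The delta chain segments and their constant gene Trdc lie between the Trav and Traj segments, and joining a Trav to a Traj segment removes them. A cell may join again, from a V segment farther out to a J segment nearer to Trac. In a list of splice junctions the J to Trac step is an intron, while a V to J join in the DNA is read against the unrearranged genome as a very long gap.

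The J segments are shown first because most of the results concern which of them was used. The first 6 lines are the segments with the most reads spliced to Trac. The next 6 are all GENCODE M21 J genes with 0 such reads from within 5 bases of their annotated end. Sequences and positions are from GENCODE M21 on GRCm38, plus strand. Capitals mark TTTGGNNNNGG or TTCGGNNNNGG, the codons of the phenylalanine-glycine-any-glycine motif of J segments.
Traj22 (chr14:54197248-54197307): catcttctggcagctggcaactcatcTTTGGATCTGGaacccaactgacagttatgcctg
Traj31 (chr14:54187895-54187951): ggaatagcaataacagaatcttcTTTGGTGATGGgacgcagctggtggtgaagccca
Traj4 (chr14:54216291-54216353): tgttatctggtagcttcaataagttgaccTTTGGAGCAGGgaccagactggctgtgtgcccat
Traj58 (chr14:54157280-54157342): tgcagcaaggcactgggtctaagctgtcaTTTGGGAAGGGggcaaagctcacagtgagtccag
Traj26 (chr14:54194490-54194549): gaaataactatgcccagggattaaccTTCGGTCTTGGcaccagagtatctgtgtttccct
Traj18 (chr14:54200777-54200842): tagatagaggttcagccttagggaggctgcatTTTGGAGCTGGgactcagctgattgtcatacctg
Traj59 (chr14:54156133-54156194): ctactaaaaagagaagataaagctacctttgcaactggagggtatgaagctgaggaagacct
Traj46 (chr14:54172336-54172398): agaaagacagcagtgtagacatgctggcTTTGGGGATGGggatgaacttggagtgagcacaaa
Traj29 (chr14:54190946-54191005): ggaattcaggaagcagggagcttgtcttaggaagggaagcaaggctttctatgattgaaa
Traj20 (chr14:54199441-54199498): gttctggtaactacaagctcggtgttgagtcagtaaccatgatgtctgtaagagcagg
Traj19 (chr14:54200386-54200446): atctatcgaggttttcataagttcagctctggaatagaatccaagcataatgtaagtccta
Traj3 (chr14:54217292-54217357): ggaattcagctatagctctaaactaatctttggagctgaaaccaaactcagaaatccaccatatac

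The thymus label was checked against marker genes in the gene tables, which give expected counts (estimated fragments) and TPM, a level per gene length that sums to a fixed total. Depth was 48.6 and 62.1 M expected counts over genes in replicates 1 and 2. Of 10 thymocyte markers, 10 had a mean of at least 10 TPM, and their summed level was 4037 TPM in replicate 1 and 4057 TPM in replicate 2. Of 5 gamma-delta T cell markers with a value, 5 had at least 1 TPM and summed to 42.9 and 35.0 TPM. The 4 B cell markers summed to 49.9 and 41.9 TPM, and the 4 thymic epithelium markers to 169.6 and 186.9 TPM. In whole tissue, fewer cells of a type and less RNA per cell cannot be told apart. All 13 genes of the rearrangement list were at or above a mean of 1 TPM. Over all 43346 genes, 14360 reached a mean of 1 TPM and 8171 a mean of 10 TPM. Rag1, which with Rag2 forms the nuclease that cuts the segments, had 276 TPM in both libraries, and Rag2 had 35.0 and 44.0 TPM. Dntt, the polymerase that adds bases at the cut ends, had 308 and 284 TPM, and Xrcc4, which helps to join them, had 1.37 and 1.48 TPM.

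The window differed from the rest of the list in how far its junctions reach. In the window 1270 of 1944 junctions spanned over 100000 bases, 65.3% (95% exact binomial interval 63.2 to 67.4), against 80761 of 530171 in the rest, 15.2%. By reads, such spans took 10.6% of R1 and 12.2% of R2 in the window, against 0.662% of R1 and 0.588% of R2 in the rest. Both entries thus gave the same order, and with 1 list there is no test over samples. The same reads were often listed at several near-identical V copies, which raises the window's counts of long junctions and of their reads. Of the 1270, 789 ran from a V end to a J start, with 1227 listed reads. With copies counted once these came to 328, with 513 reads. Another 185 ran between 2 V genes. The share of long junctions with copies counted once was not computed. Names in the list also carry a C mark of 0 or 1 and an A mark of 0 or 1, which the files do not define. Junctions over 100000 bases with C at 0 made up 48.5% of the window and 13.8% of the rest, but among junctions of that span C was at 0 in 74.2% in the window and in 90.4% in the rest. Of the 84 junctions in the window with A at 1, 81 had the ends of an intron in GENCODE M21, counted from Trac.

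**Figure D1:**
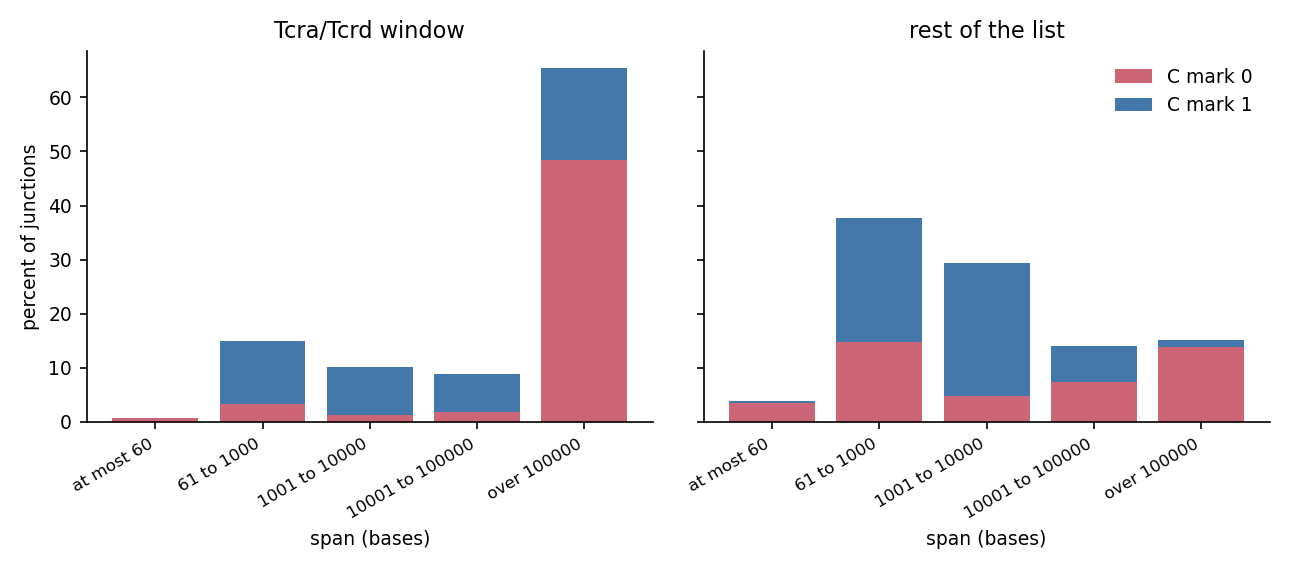
Percent of junctions (y axis) by span in bases (x axis) in the Tcra/Tcrd window and in the rest of the list, stacked by the C mark of the junction name. The class over 100000 bases holds 65.3% of the window's junctions and 15.2% of the others. Junctions listed at several V copies are each counted.

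Most reads of the window crossed the introns inside Trac, the alpha chain constant gene. The last of its 3 introns, chr14:54842774-54843360 on mm9, had 11683 reads, 5216 in R1 and 6467 in R2, and 159 junctions of the whole list had more. The middle intron, chr14:54841826-54842665, had 4462 reads (1853 and 2609), and the first, chr14:54840457-54841780, had 4161 (1717 and 2444). The last intron was read 2.81 times as often as the first, with ratios of 3.04 in R1 and 2.65 in R2. Together with 26 rare variants these introns held 20349 reads, 59.5% of the window.

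The first Trac exon, whose first base is 54840196 on mm9, was the end shared by most junctions: 62 donors were spliced to it, with 2506 reads (1176 in R1 and 1330 in R2). That is 7.33% of the window's reads (7.05 to 7.61), and 0.602 times the reads across the first Trac intron (0.685 in R1 and 0.544 in R2). Of the 62 donors, 44 lay exactly where GENCODE M21 puts the last base of a Traj segment, counted back from Trac, and 46 lay within 5 bases of one. These 46 donors held 2459 reads, 98.1%. They belonged to 45 of the 60 annotated Traj segments, and 52 of the 62 donors were read in both entries.

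Traj22 was the segment read most, with 192 reads across chr14:54816983-54840195, 83 in R1 and 109 in R2, or 7.66% of reads into the exon (6.65 to 8.77). Traj31, 32569 bases from Trac, had 131 reads (50 and 81). Traj4, 4167 bases from Trac, had 129 reads (53 and 76). Traj58, the most distant segment in use, 63178 bases away, had 121 reads (65 and 56). The leading segments were thus spread over nearly the whole array and did not sit together.

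Traj26 had 104 reads (46 and 58) and Traj18 had 101 (51 and 50). Traj18 is the J segment of the invariant receptor of natural killer T cells in mice. Traj15 had 84 reads (42 in each entry), Traj9 had 83 (40 and 43), Traj49 had 73 (38 and 35) and Traj30 had 72 (31 and 41). The donor of Traj49 lay 3 bases before the annotated segment end. The interval of Traj22 lay above that of Traj31 (4.39 to 6.17%), while the other neighbours in this order had intervals that overlapped. No donor of the 62 had R1 and R2 shares whose intervals failed to overlap.

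The 10 most used donors took 43.5% of the reads (41.5 to 45.5), with 42.4% in R1 and 44.4% in R2. Use was spread over the array as if 32.1 donors were used equally (the inverse Simpson number, 1 over the sum of squared shares). The read-weighted median distance from Trac was 25971 bases in all reads, 28159 in R1 and 25971 in R2. Counting from Trac in 4 stretches of 16500 bases, the nearest stretch had 23.0% of the reads over 10 used segments and the next had 37.5% over 13. The following stretch had 20.3% over 14 and the most distant 17.3% over 8. The far side of the array, past its midpoint at 33503.5 bases, had 38.4% (36.5 to 40.3), with 40.1% in R1 and 36.9% in R2.

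Reads per segment in R1 and R2 followed each other across the 46 donors (Pearson r = 0.915, Spearman rho = 0.904; both entries come from the same tissue and list). The lowest of the used segments were Traj25 with 4 reads, all in R2, and Traj41 with 7 (3 and 4). Traj32 had a main donor with 49 reads and a second one 4 bases past the annotated end with 20 reads (7 and 13). The 16 donors with no annotated Traj end within 5 bases held 47 reads, at most 12 each. The donor with 12 reads, 2664 bases from Trac, lay inside Traj2. Those at 13920 bases, with 2 reads, and at 20084 bases, with 4, lay inside Traj12 and Traj19. The nearest donor to Trac lay 391 bases away with 2 reads, and the farthest, at 419303 bases, had 3.

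**Figure D2:**
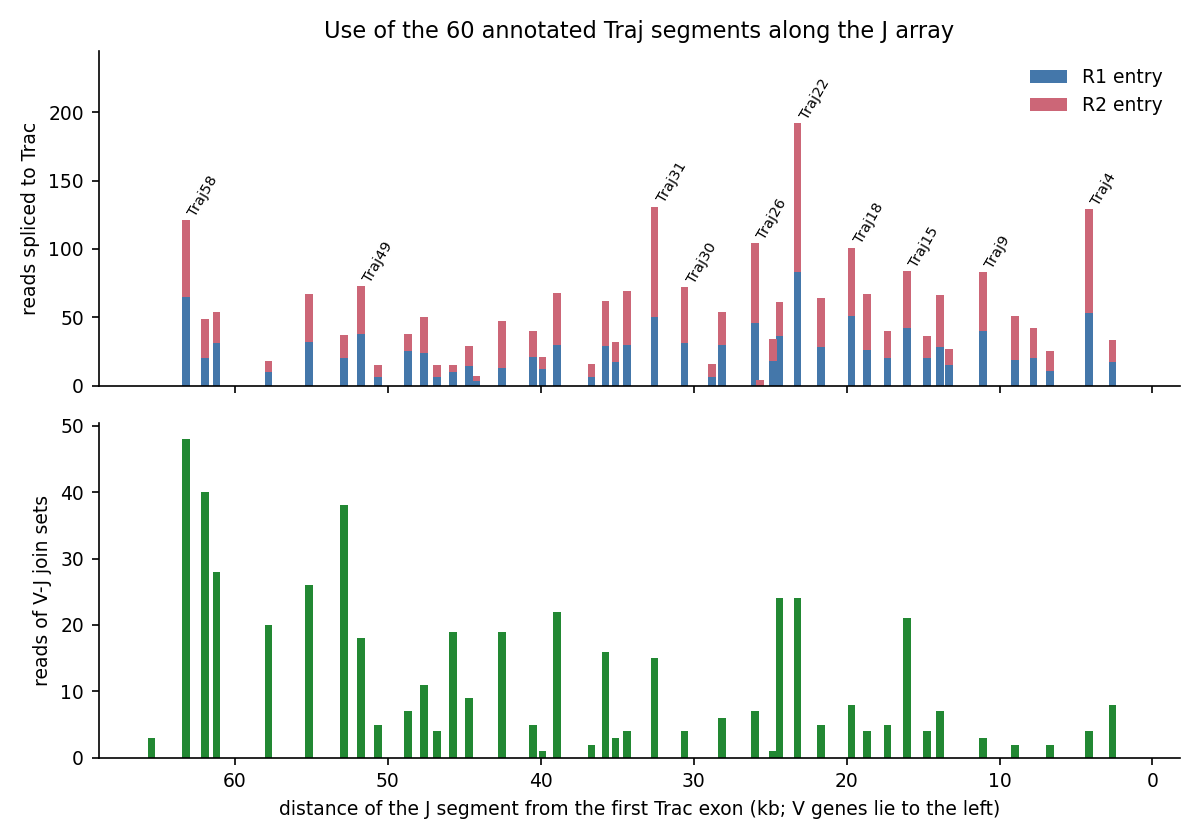
Reads (y axes) for each of 60 annotated Traj segments against distance from the first Trac exon in kb (x axis); the upper panel shows reads spliced to Trac, stacked by entry, and the lower panel reads of V to J join sets. Traj22 has the tallest upper bar at 192 reads, while Traj58, at the far end, has the tallest lower bar at 48 reads.

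Of the 60 annotated Traj segments, 15 had no read spliced to Trac from within 5 bases of their annotated end. For such donors, 0 of 2506 reads allows a share of up to 0.120% (3 counts). All 9 that GENCODE M21 classes as pseudogenes were among the 15, and the other 6 were Traj59, Traj46, Traj29, Traj20, Traj19 and Traj3. Traj19 is listed by that rule, although a donor inside it, 20084 bases from Trac, had 4 reads (1 in R1 and 3 in R2). Searched on both strands, the motif in capitals above was present in 41 of the 45 used segments and in 2 of the 15 others, Traj46 and the pseudogene Traj54. The 4 used segments without these letters were Traj44 with 15 reads, Traj41 with 7, Traj38 with 21 and Traj33 with 32. Where the annotation gives a reading frame, the motif lay in that frame in 41 of 42 segments, the exception being Traj7. On either strand, the same letters occurred in the first 60 bases of 1.36% of 58781 protein-coding transcripts. A match of letters describes the segment and is no test of its function.

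The gene tables could not be used for J segments: all 59 Traj genes with a row were listed at 0, with an effective length of 0. Contigs, stretches of genome covered by reads in the authors' contig list, covered 97.6% of the 66000 bases before Trac on the plus strand, in 23 contigs, and 6.25% on the minus strand, in 20. Nearly all of the J array was thus covered on the strand of Trac.

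Junctions that ran from the 3' end of a V gene to the start of a J segment, as a V to J join in the DNA would, numbered 789, which is 40.6% of the window's junctions and 3.59% of its reads. They spanned 161527 to 1625340 bases, and 734 of them, 93.0%, had C at 0, near the 90.4% of junctions over 100000 bases in the rest of the list. Of the 915 plus-strand junctions over 100000 bases with C at 0, these made up 80.2%. The V genes of this strain include near-identical copies, and the same R1 and R2 counts were often listed at several of them. Joins to the same J position, from the same place in different V genes and with the same R1 and R2 reads, were therefore counted once. This left 328 join sets with 513 reads, of which 173 sets matched a single V gene by this rule. Rows with unequal counts stayed apart. Traj50 was joined at the same position from the same place in Trav6-5, with 3 reads, and in Trav6-7-dv9, with 5. V sequences were not compared, so 1 set held both Trav19 and Trdv2-2. A set of a single V gene may therefore still share its reads with another gene.

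Each join was read few times and mostly in 1 entry. The highest join set had 6 reads, 196 had 1 read, and only 7 were read in both entries, while 134 were in R1 alone and 187 in R2 alone. Among join sets of 3 reads, 26 of 28 were in 1 entry, against 69.0% of junctions with 3 reads in the rest of the list. Among those of 4 to 6 reads, 8 of 10 were in 1 entry, against 39.8% in the rest. Whether both mates of a fragment counted as separate reads is not given in the sources used here. The 5 longest junctions of the window were all joins of this kind, read 1 or 2 times. The longest ran from the end of Trav3-1 to Traj12, chr14:53200887-54826226.

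Joins kept the reading frame more often than either other frame. The frame of V and J could be read in 309 join sets, of which 217 were in frame, 70.2% (64.8 to 75.3). The other frames had 16.5% (12.5 to 21.1) and 13.3% (9.69 to 17.6). Sets with R1 reads were in frame in 95 of 134 cases and sets with R2 reads in 129 of 182, 70.9% in each entry. Sets of a single V gene gave 70.1%. Between the annotated V end and J start, a net median of 2 bases were missing (quartiles 0 and 4.25, range -9 to 15). Net means bases lost from the segments less genome bases kept past their ends, so a negative value means more kept than lost. In 43 sets the net was 0. Such a join need not be untrimmed, since V bases lost can be matched by genome bases kept before J, as in a join of Trav19 to Traj56. A junction is a pair of genome positions, so bases added at the join that are not in the genome do not appear in it. Frames and missing bases were read from these positions alone, so they describe only the joins that could be listed as such a pair.

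**Figure D3:**
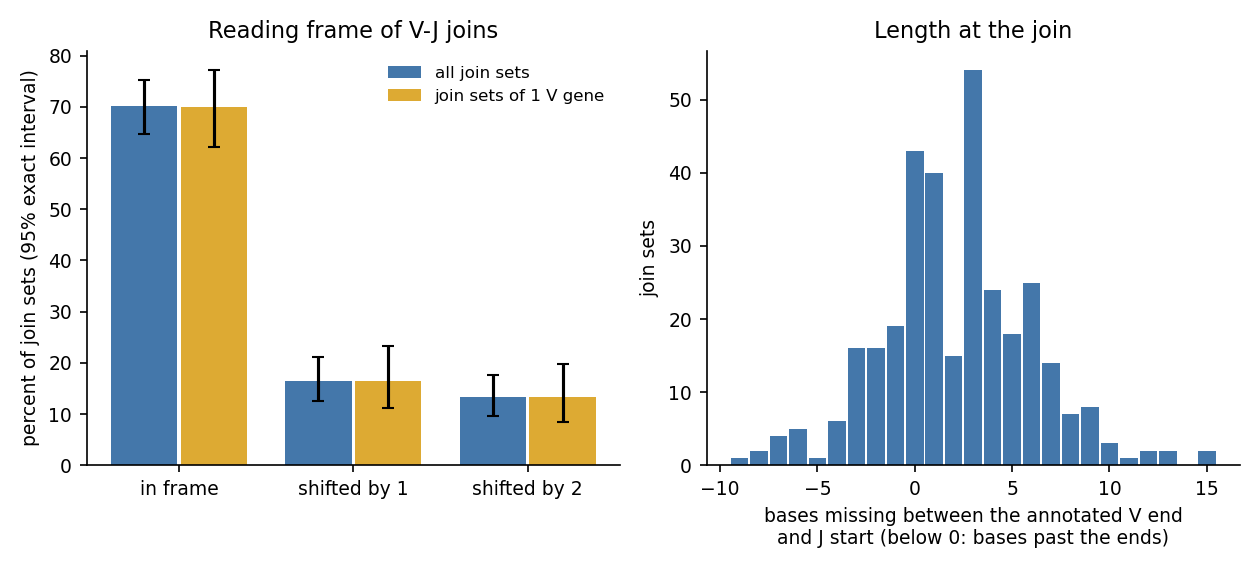
Left, percent of join sets (y axis) in each reading frame, for all 309 sets with a known frame and those of 1 V gene. Error bars are 95% exact binomial intervals. Right, join sets (y axis) by the net number of bases missing between V end and J start (x axis). Joins in frame make up 70.2% and 70.1%.

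The J ends of joins lay farther from Trac than those of the spliced reads. Of 502 join reads to Traj segments, 348 went to the far side of the array, 69.3% (65.1 to 73.3), with 70.4% in R1 and 68.6% in R2. Splicing to Trac had 38.4% there, with 40.1% in R1 and 36.9% in R2, so both entries gave the same order. The read-weighted median J distance was 45722 bases in joins and 25971 bases in spliced reads. Traj58 led the joins with 48 reads in 30 sets, followed by Traj57 with 40 in 26 sets and Traj50 with 38 in 23. Traj57 and Traj50 had 49 and 37 reads spliced to Trac. Traj4, which had 129 spliced reads, had 4 join reads, and Traj31, with 131, had 15.

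Across all 60 Traj segments the join reads and spliced reads had a Spearman rho of 0.72 and a Pearson r of 0.51, and across the 45 used ones 0.44 and 0.35. The points share a library, and segments at 0 in both raise the first pair of values. Of the 45 used segments, 40 had a join set, as did 1 of the 15 unused, the pseudogene Traj61, with 3 join reads. Segments with no donor near their annotated end were thus nearly absent from the joins as well.

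The V gene of a join went with the position of its J segment. Among join sets whose candidate V genes all lay within 400 kb of Trac, 115 of 120 reads went to the far side of the J array, 95.8% (90.5 to 98.6), with a median J distance of 61.2 kb in each entry. Where all candidates lay 400 to 600 kb away, 117 of 137 reads did so, 85.4% (78.4 to 90.8), with a median of 47.6 kb (50.7 in R1 and 45.7 in R2). Where all lay beyond 600 kb, 6 of 12 reads did so, too few to place. In the remaining 150 sets, from V copies on both sides of a limit, 110 of 233 reads did so, 47.2% (40.7 to 53.8). By entry, R1 gave 91.5% for the nearest V genes, 91.5% for the next and 41.3% for these copies, and R2 gave 98.6%, 78.8% and 50.3%. The copies thus had the lowest share of these 3 classes in each entry, and the 2 nearer classes differed in R2 alone, where their intervals did not overlap (92.6 to 99.97 and 67.0 to 87.9).

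Trav21-dv12, 343.8 kb from Trac, had 63 reads in 34 sets with a single V gene, 21 in R1 and 42 in R2, with a median J distance of 62.0 kb. Trav19, 374.7 kb from Trac, had 27 reads (15 and 12) and a median of 61.2 kb. Trdv1, a delta V gene 338.3 kb away, had 17 reads (8 and 9) joined to Traj segments, again with a median of 61.2 kb. These 3 genes joined mainly to the segments at the far end of the array.

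Trav17, 413.4 kb away, had 17 reads (6 and 11) and a median J distance of 52.9 kb. Trav14-3, at 456.8 kb, had 20 reads (9 and 11) and a median of 42.5 kb. Trav8-2, which GENCODE M21 classes as a pseudogene, lay at 481.7 kb and had 17 reads (10 and 7) with a median of 21.7 kb. Trav6-7-dv9, farther out at 510.1 kb, had 24 reads (14 and 10) and a median of 52.9 kb, so the medians did not fall steadily with distance. Over the 167 sets of 1 V gene the Spearman rho of V and J distance was -0.42 (-0.36 in R1 and -0.43 in R2), with sets of 1 gene sharing their V distance.

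**Figure D4:**
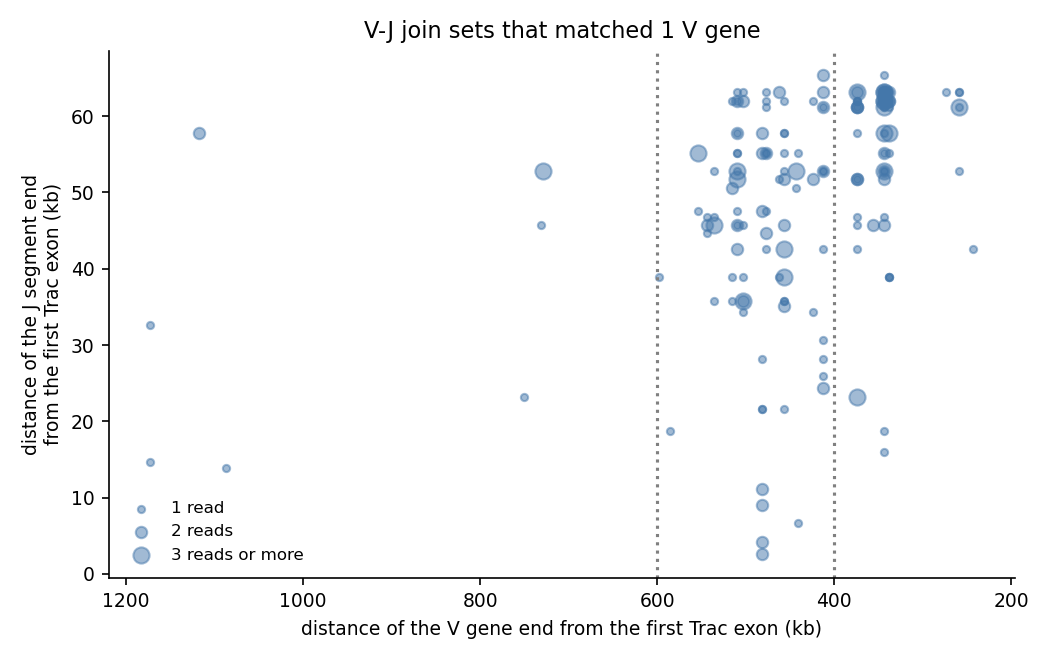
Each point is a join set that matched 1 V gene (167 sets), at the distance of its V gene from the first Trac exon (x axis, kb) and that of its J segment (y axis, kb); larger points have more reads, and dotted lines mark 400 and 600 kb. Of the 118 reads of V genes within 400 kb, 95.8% lie past the midpoint of the J array, while the points at the bottom belong to V genes farther out.

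V genes were read across their own short introns, which separate the leader exon from the V exon. In all, 156 junctions lay within a single V gene, with 4779 reads and a median span of 171 bases, and 108 of 136 annotated V genes had such reads. Introns of at most 1000 bases, in any gene, held 64.2% of the window's reads (63.7 to 64.7). Most of these reads came from 2 introns of Trac, with 11683 and 4462 reads, and not from V genes. Outside Trac the leaders were Trav12d-2, chr14:53535636-53535809, and Trav12n-2, chr14:53846610-53846783, each with 331 reads, 146 in R1 and 185 in R2. Trav17, chr14:54426360-54426495, had 307 reads (164 and 143). Next came 2 introns of Trdc, with 277 reads (164 and 113) and 263 (123 and 140). Trav6n-7 had 237 (80 and 157), Trav6d-7 had 235 (80 and 155) and Trav9-4 had 180 (96 and 84).

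The equal counts of Trav12d-2 and Trav12n-2 belong to a wider pattern of V copies. A junction from the leader of Trav12d-2 to the V exon of Trav12n-2, spanning 311148 bases, also had 146 and 185 reads. Of 135 junctions with at least 10 reads upstream of the J array, 68 stood in 27 such sets, with identical R1 and R2 and a shared end or span. They listed 3884 reads, or 1571 with each set counted once. Junctions between 2 different V genes numbered 240, with 2387 reads, and 34 of the 41 with at least 10 reads stood in a copy set. Reads at these genes cannot be assigned to 1 copy, and levels of single copies are uncertain.

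In the gene tables, the 10 Trav genes with the most expected counts held 40.5% (39.0 to 42.0) of Trav counts in replicate 1 and 39.8% (38.4 to 41.2) in replicate 2. Among genes whose symbol begins with Trav, Trav8-2 led with 228 and 301 expected counts, followed by Trav3-3 with 223 and 256, and Trav17 with 218 and 217. GENCODE M21 classes Trav8-2 as a pseudogene, and it had 7 intron reads. The V gene B230359F08Rik, outside that list, had 249 and 238. Trav9-4 had 174 and 253, Trav13-4-dv7 had 195 and 196, and Trav12-3 had 160 and 163. Trav13-2, Trav12-2, Trav1 and Trav14d-1 completed the list, with means of 14.5 to 22.6 TPM. Per length, Trav3-3 had 28.8 ± 3.7 TPM and Trav8-2 had 2.95 ± 0.11 TPM (SD, n = 2), so the order of counts was not that of levels per length. Of 103 Trav genes with a row, 95 had at least 1 expected count in both libraries.

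Trav17 and Trav9-4 were high both in counts and in intron reads. Trav3-3, with 479 counts over both libraries in the plot of V genes, had 2 intron reads, and Trav13-4-dv7 had 6. Over 109 V genes with a row, intron reads and expected counts had a Spearman rho of 0.40 and a Pearson r of 0.24, and over the 87 outside copy sets 0.49 and 0.39, with both readouts from the same tissue.

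**Figure D5:**
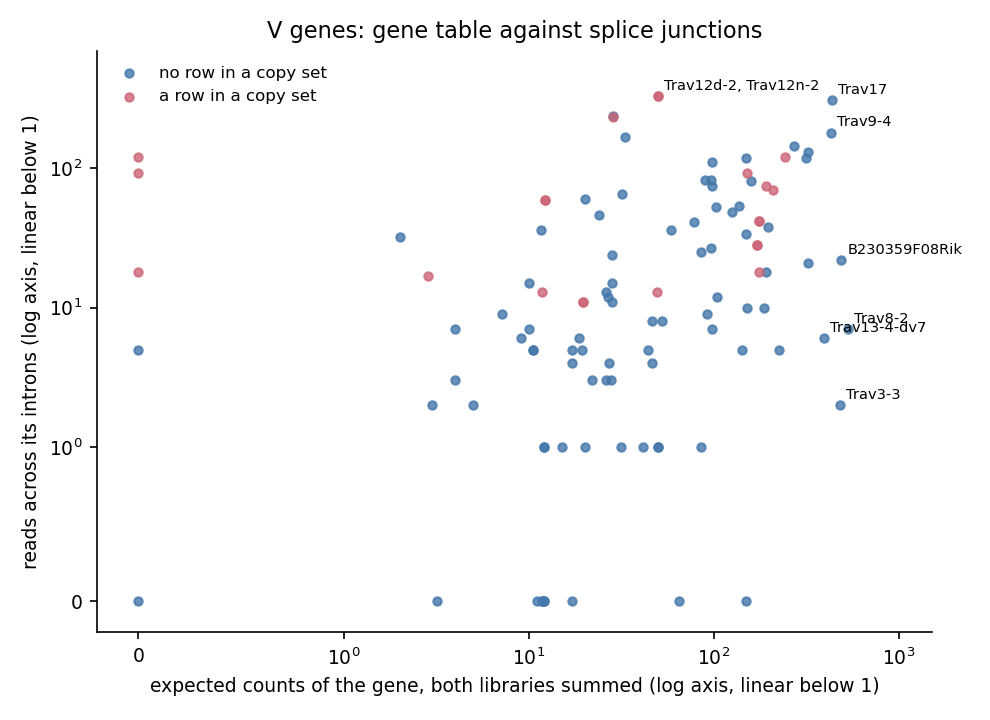
Each point is a V gene, at its expected counts summed over both libraries (x axis) and the reads across its introns in the junction list (y axis), both on log axes that are linear below 1; colours mark genes with a row in a copy set. Trav17 is high on both axes, whereas Trav3-3 lies at the right with 2 intron reads.

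The delta chain was read far less than the alpha chain. The first exon of Trdc, the delta constant gene, had 7 donors with 215 reads (106 in R1 and 109 in R2), against the 62 donors and 2506 reads of Trac. Its main donor was Trdj1, across chr14:54742864-54762525, with 171 reads (84 and 87). Trdj2 had 18 (7 and 11), and an unannotated donor, 6450 bases before the exon, had 19 (13 and 6). The 3 introns of Trdc had 263, 277 and 215 reads. Between the D segment Trdd2 and Trdj1 lay 17 junctions of 887 to 903 bases, with 41 reads, and 16 of them had C at 0. Joins from a V gene to Trdj1 numbered 6 sets with 11 reads, and none was found to Trdj2.

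Of the delta V genes, Trdv5 lies beyond Trdc in the opposite orientation, and its leader intron on the minus strand, chr14:54768645-54768839, had 111 reads (62 and 49). Trdv2-2 had 82 intron reads and Trdv1 had 54. The count of Trdv2-2 includes 6 reads (3 and 3) of a junction on the opposite strand, chr14:54580862-54581085, within Gm43647. In the gene tables Trdv5 had 9.20 ± 1.00 TPM, Trdv1 8.26 ± 0.59 and Trdv2-2 8.16 ± 0.70 (SD, n = 2). Trdv2-1 had 0.700 and 0 TPM. Trdv4, Trdd1, Trdd2, Trdj1 and Trdj2 were listed at 0. Trdj1 and Trdj2 had an effective length of 0 in both libraries, so their value is no measure of their use. The level of Trdc and Trdv3 in the gene tables was not analysed here.

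Of the acceptors other than the first Trac exon, the later exons of Trac came first, followed by Trav12n-2 with 662 listed reads and Trav6n-7 with 472, each from 2 donors. Both sums list reads of V copies more than once: the donors of Trav12n-2 had 331 reads each (146 and 185 in both), and those of Trav6n-7 had 237 (80 and 157) and 235 (80 and 155). The acceptor of Trav17 had 344 reads (179 and 165), more than any single one of these 4 junctions. On the minus strand, opposite to the V genes, 138 junctions had 507 reads, and 6 of them had at least 10 reads. Trdv5 was the highest. Of the others, chr14:54574883-54581085 with 40 reads (19 and 21) and chr14:54566412-54574810 with 18 (2 and 16) fall within Gm43647, a gene of unstated function. The 3 remaining ones matched no gene of that strand, chr14:54521551-54531424 with 34 reads (14 and 20) and 2 that start at 54531513, with 29 reads each (10 and 19 in both), which again have equal counts.

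Genes next to the segments and partner chains were read at other levels. Dad1, a subunit of the enzyme that attaches sugar chains to proteins and the neighbour of Trac, had 468 ± 53.4 TPM, and Trac had 399 ± 30.5 TPM (SD, n = 2). None of the 5 olfactory receptor genes in the window reached 1 TPM, against 14360 of all 43346 genes that did. All 7 genes of the partner chain list had over 10 TPM, against 8171 of all 43346 genes at 10 TPM or more. Among the 7 were Trbc1, a beta chain constant gene, at 3551 ± 186 TPM, and Ptcra at 118 ± 26 TPM. Ptcra is the surrogate alpha chain of cells that have not yet joined their alpha genes. Trbc1 and Trbc2 are near-identical, so their split is uncertain.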

How the data were processed

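The authors deposited 1 junction list and 1 contig list on mm9, without headers, and gene tables for 2 thymus libraries. Meanings in the lists were read from the values: the deposited junction counts are whole reads, equal to R1 plus R2 in every row, and the deposited score is a reproducibility value between 0 and 1. Contigs were used by position only. Per the file headers, the gene tables hold expected counts (estimated, not normalised) and TPM, and per the text files deposited with them they were made on mm10 with GENCODE M4. No source used here names the aligner, its limit on intron length, the quantifier or how reads with several matches were treated.

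R1 and R2 were taken as the libraries' entries, unnumbered: over 5539 genes with at least 200 reads and counts, the R2 share of junction reads and the replicate 2 share of expected counts had a Pearson r of 0.73. No column of per-sample values was left unused for lack of a label.

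Ends were named by their distance from the first Trac exon in GENCODE M21 (GRCm38), and no coordinate was carried between builds. Of 157 annotated receptor introns, 107 had both ends at the same distance. The shared acceptor was planned as the end with most reads, which is the last Trac exon with 4 donors. The first Trac exon, shared by most junctions, was used instead because only it takes J segments. A J donor lay within 5 bases of an annotated end, and a join ran from within 20 bases of a V end to between 20 bases before a J start and its end. The finding of joins and the reading of their frames were tested on simulated joins. The simulated ends were closer to the segment ends than in some joins found. None of them lay before the annotated J start, so the joins found with such a start were not covered. The naming of ends, the choice of acceptor and the counting of V copies once were not tested in this way. Intervals are 95% exact binomial and, like the counts, cover counting error only, since the reads carry no molecular identifiers. Python 3.11.15, numpy 2.4.6, scipy 1.17.1 and matplotlib 3.10.9 were used. No test between groups was possible.

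Named junctions were the 10 most used donors, the nearest and farthest donor, 5 other acceptors, 10 short introns, the 5 longest and minus-strand junctions of at least 10 reads. Named genes were the 10 highest Trav and Traj genes, the delta segments and the fixed lists. V to J joins, their frames, copy sets, the genes named for them and B230359F08Rik were chosen after their values were seen. The locus and lists were chosen with earlier results of these data known.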

Additional observations from a re-analysis of the deposited data

How the results depend on the processing

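No paired analysis was possible because both libraries belong to 1 group. The number of junctions in the window, 1944, was 308 with at least 5 reads, 191 with at least 10, 231 with a reproducibility value under 0.1, 1037 in R1 alone and 1284 in R2 alone. The share of window reads joined to the first Trac exon, 7.33%, became 7.97% with at least 10 reads, 7.92% under the reproducibility limit, 7.89% in R1, 6.89% in R2 and 7.86% with copy sets counted once. The share in introns of at most 1000 bases, 64.2%, became 69.1% and 68.9% under these 2 filters, 64.7% on the plus strand alone, 64.9% in R1, 63.6% in R2 and 65.0% with copy sets counted once. With the end of most reads as the shared acceptor there were 4 donors, 34.2% of window reads, 100% in the 10 most used donors, 0.0171% on the far side and a median distance of 587 bases. With at least 2 reads, 75.4% of join sets were in frame. Join reads to the far side of the J array, 69.3%, became 89.4% for sets of 1 V gene and 47.1% for sets of several, so this share rests on which V genes are counted; V copies and V distance cannot be told apart in it. Trac had 59.0 CPM. The 10 highest Trav genes held 40.1% (mean of both libraries), 34.1% in TPM and 41.7% among genes with a mean of at least 10 counts. Leaving out 1 replicate gave 377 to 420 TPM for Trac and 39.8% to 40.5% for the Trav share. The 62 donors into the first Trac exon were 46 with at least 5 reads, 45 with at least 10, 46 under the reproducibility limit, 58 in R1 and 56 in R2. Apart from the changed acceptor, the shares of the 10 most used donors and of the far side and the median distance stayed within their intervals. The cause of the shifts was not tested. Trdc and the Traj counts gave no value. The alternatives by entry, by acceptor, by copy set and for joins were added after the data were seen.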

Other observations

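The last intron of Trac was read more often than the gene was counted: it had 11683 junction reads, while the gene tables gave Trac 2912 and 3602 expected counts, 6514 in all, a ratio of 1.79. The middle and first introns, with 4462 and 4161 reads, were below that count. The last intron had the A mark at 0, and the first and middle ones had it at 1.

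Some transcripts of the locus used exons outside annotated segments. A donor at chr14:54420893, upstream of Trav17, was spliced to the V exon of Trav17 with 37 reads (15 in R1 and 22 in R2) and straight to the first Trac exon, 419303 bases away, with 3 (1 and 2). A junction from within that exon, chr14:54426611-54428747, also had 37 reads (15 and 22), while the exon's acceptor had 344 reads in all. From B230359F08Rik, an annotated V gene nearby, junctions ending at 54417478 and 54417481 had 49 reads (38 and 11) and 16 (8 and 8). An intron of 870 bases, chr14:54679907-54680776, with no annotated segment at either end, had 53 reads (17 and 36).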
